A study of Mus musculus with 12 samples.

Results

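The m6A landscape of UV-exposed mouse skin was read from 6 libraries: 3 libraries of RNA pulled down with an antibody against N6-methyladenosine (IP), and the 3 input libraries made from the same UV-exposed samples before the pull-down. Each IP library was set against the input library of its own sample number, so the comparison had 3 pairs. The series holds 12 libraries in all, and the other 6 are the IP and input libraries of 3 control skin samples. The study addressed photoaging, the m6A writer subunit KIAA1429 (Virma) and the microfibril gene Mfap4. Every gene of the count table was a member: 49492 genes were listed, of which 25022 passed the filter on low counts and were tested.

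The groups were UV-exposed skin and control skin of Mus musculus, both described in the labels as whole skin and total RNA. The labels do not give the UV source, dose or timing, nor the strain, age or sex of the mice. They also do not say whether the 3 samples of a group were separate animals, so each p-value measures only the spread between these samples, which may be technical. In bulk skin, fewer cells of a type and less RNA per cell cannot be told apart. The ratio of IP to input within a sample divides out the level of a transcript, but not the mix of cell types that supply it.

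m6A is a methyl group on adenosine, the most frequent internal mark of mRNA. A nuclear writer complex of METTL3, METTL14, WTAP, VIRMA, ZC3H13, CBLL1 and RBM15 or RBM15B places it at a core of GGAC and related letters, FTO and ALKBH5 can remove it, and YTH-domain proteins bind it and direct splicing, translation or decay of the transcript. Marks are known to lie mostly in long exons and around stop codons. An antibody pull-down reports, for each transcript, its share of the IP reads over its share of the input reads. That ratio is given here as log2 IP over input, where 1 is 2-fold, after the library totals were multiplied by scaling factors (TMM). It ranks transcripts within the library and does not give the fraction of molecules that carry the mark.

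Transcripts of UV skin differed in their share of IP and input reads in both directions. Of the 25022 genes tested, 7601 (30.4%) were higher and 7528 (30.1%) lower in IP than in input at a Benjamini-Hochberg adjusted p below 0.05 in edgeR's quasi-likelihood test. A total of 15129 genes (60.5%) were therefore called, and 7537 of the higher and 7464 of the lower genes had the same sign in every UV pair. The remaining 9893 genes were not called. With library size alone in place of TMM scaling, the median of all genes moved to −0.17 from −0.01, and 5974 genes were higher and 9270 lower. The higher genes then made up 39.2% of the calls, compared with 50.2% under TMM. A difference of more than 1.5-fold was called for 3027 genes (12.1%) in the higher and 2957 genes (11.8%) in the lower direction.

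The spread of values was wide and lopsided. The quartiles of all genes tested were −0.55 and 0.52, and for protein-coding genes −0.39 and 0.53. Among called genes, 177 were at least 4-fold higher and 709 at least 4-fold lower. The 3 UV pairs ranked transcripts alike: across 11929 genes of at least 5 CPM (a gene's reads scaled to the total of its library), log2 IP over input correlated at 0.97, 0.968 and 0.977 between pairs, a description across genes, which are not independent replicates.

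The libraries held 34339480, 92163619 and 44655078 reads in genes in UV IP samples 1 to 3, against 36834233, 50264113 and 67060422 in the matching UV inputs, and 24126662 to 59732603 in the control libraries. Of gene counts from 1 to 20, between 79.5% and 83.6% were even in each library, so both mates of a read pair may have been counted and the number of fragments may be lower than these totals. The UV inputs carried the transcripts of whole skin. Krt1, Krt10, Krt14 and Krt5 of the epidermis averaged 29300, 13700, 6710 and 3050 CPM, Col1a1 and Col3a1 of the dermis 2470 and 2130 CPM, and the follicle keratin Krt71 averaged 1770 CPM. Muscle was also present, with Acta1 at 335, 177 and 515 CPM in UV inputs 1 to 3. Liver and brain transcripts were low, with Alb and Apob at 0.208 and 0.795 CPM and Gfap and Snap25 at 0.522 and 1.22 CPM. The T cell genes Cd3e and Cd3g were also low, at 0.328 and 0.739 CPM.

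The transcripts of the writer complex were themselves mostly enriched. Of 9 writer genes tested, 6 were higher in IP, 1 was lower and 2 did not pass the test, with a median of 0.54 against −0.01 for all genes. Rbm15b, an RNA-binding adaptor that guides the complex, had 159, 167 and 167 CPM in UV IP 1 to 3, against 54.0, 59.6 and 60.0 CPM in the UV inputs. Every IP library lay above every input, and the log2 difference was 1.51 (SE 0.05, adjusted p = 1.97e-15, edgeR quasi-likelihood test). Its exons share bases with Manf on the same strand and Vprbp on the opposite strand. Zc3h13, which anchors the complex in the nucleus, had 666, 716 and 683 CPM in UV IP against 299, 301 and 314 CPM in input (log2 1.18, SE 0.04, adjusted p = 3.39e-15). Rbm15, the paralog of Rbm15b, was at 1.30 (SE 0.06). The catalytic subunit gene Mettl3 went the other way at −0.27 (SE 0.08, adjusted p = 0.00696), and its partner Mettl14 was at −0.12 (adjusted p = 0.059).

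Virma, the scaffold subunit that the study is named for (chromosome 4, 11485958 to 11550684, plus strand, GRCm38), had 146, 161 and 146 CPM in UV IP against 97.1, 107 and 106 CPM in UV input. The groups did not overlap, and IP exceeded input by 0.54 on the log2 scale (SE 0.06, adjusted p = 3.15e-08, edgeR). Its value was 0.79 in control skin, and the difference of −0.25 between UV and control did not pass the test (SE 0.08, adjusted p = 0.151). Mfap4, a microfibril-associated glycoprotein gene of the dermis (chromosome 11, 61485431 to 61488900, plus strand), had 7.21, 8.46 and 11.9 CPM in UV IP against 7.54, 7.34 and 11.2 CPM in UV input. Its IP and input values overlapped, and its value of 0.09 in UV was not called (SE 0.08, adjusted p = 0.386). Mfap4 stood at −0.28 in control skin, and the difference of 0.37 was not called either (SE 0.12, adjusted p = 0.146). With library size only, the UV value of Mfap4 turned to −0.07.

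Readers and erasers split by gene. All 9 were called, 4 higher and 5 lower, with a median of −0.20. The cytoplasmic readers Ythdf1, Ythdf3 and Ythdf2 were at 1.23, 1.14 and 1.03, and the nuclear reader Ythdc1 was at 1.00 with 388, 427 and 395 CPM in UV IP against 188, 200 and 217 CPM in input. Both erasers were lower in IP, Fto at −0.65 and Alkbh5 at −0.20, as was Ythdc2, a reader with a helicase domain, at −0.78. Igf2bp2 and Igf2bp3, which bind marked transcripts without a YTH domain, were at −0.51 and −0.62.

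The 12 named genes with the largest positive values had between 1 and 12 exons. Grrp1 (chromosome 4, 134251110 to 134254106, minus strand) had 11.3, 7.33 and 10.3 CPM in UV IP, against 1.97, 1.17 and 1.43 CPM in input, a log2 of 2.68 (SE 0.13, adjusted p = 1.97e-13). Tmem238, a small membrane protein gene, had 24.9, 22.6 and 20.2 CPM in IP against 4.05, 4.37 and 3.91 CPM in input (log2 2.44, SE 0.09). Commd5, of the endosomal Commander complex, had 22.5, 21.2 and 22.7 CPM in IP against 4.37, 4.79 and 4.23 CPM in input (log2 2.31, SE 0.10). In all 3 genes every IP value lay above every input value, sample 2 of Grrp1 being the lowest of its group in both.

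Fut1, which adds the fucose of the H antigen to cell-surface glycans, had the smallest adjusted p of the protein-coding genes in the group. It had 44.3, 44.5 and 48.9 CPM in UV IP against 9.94, 9.83 and 10.9 CPM in input, a log2 of 2.17 (SE 0.07, adjusted p = 4.43e-16). The homeobox genes Emx2 and Lhx6 were at 2.22 and 2.08, the intronless Ier5l at 2.28, the sphingomyelinase gene Smpd5 at 2.14 and Nanp, of sialic acid synthesis, at 2.12. Emx2, Smpd5 and Nanp share exon bases with Emx2os, Oplah and Ninl, so reads of these pairs may have been split by the authors' counting. The list also held short noncoding genes: mt-Te, the mitochondrial glutamate tRNA, at 3.14 (SE 0.09), Snord49a at 2.10 (SE 0.22) and RP24-366L10.3 at 2.18 (SE 0.11). All 12 genes kept their call with each UV or control sample left out.

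Peaks lay inside 9 of these 12 genes. In Grrp1, the peak spanned 838 bases of the last exon (chromosome 4, 134251110 to 134251947) and held 348, 633 and 399 reads in UV IP 1 to 3, against 66, 52 and 86 reads in input, a log2 of 2.84 (SE 0.14). In Fut1, the peak of 660 bases in the last exon (chromosome 7, 45619981 to 45620640) held 1357, 3692 and 1854 IP reads against 349, 487 and 676 input reads (log2 2.21, SE 0.08). Peak and gene values of Fut1 were close, at 2.21 and 2.17. Nanp differed: its peak ran over 8499 bases, mostly intron, and stood at 0.36 against 2.12 for the gene, and that call was lost without UV sample 1 (adjusted p = 0.169) or UV sample 2 (adjusted p = 0.157).

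**Figure D1:**
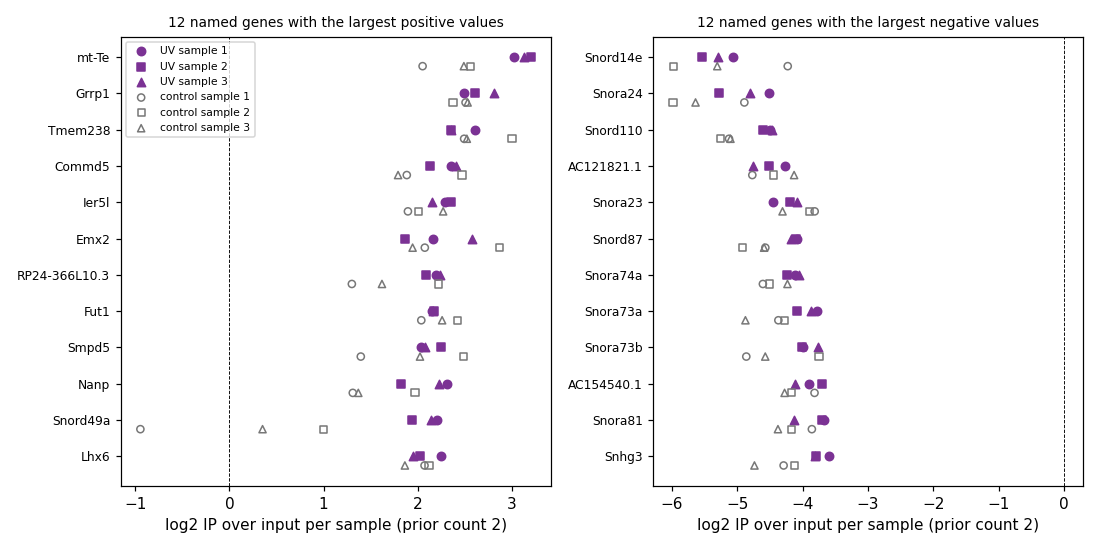
Log2 IP over input per sample (x axis, prior count 2) for the 12 named genes with the largest positive (left) and negative (right) values in UV skin. Filled purple symbols are the 3 UV samples and open grey symbols the 3 control samples; the UV symbols of Snord49a, at 1.94 to 2.21, lie right of its control symbols, at −0.95 to 1.00.

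Some peaks lay over transcription start sites, where short sequence from RefSeq (GRCm38.p6) could be read. Of 17527 start windows of 50 transcribed bases belonging to tested genes, 979 lay under a UV peak. Such a peak had to cover the whole window, span at most 2000 bases and be called higher in IP. Windows under other UV peaks were counted only among all windows. The letters GGACT, a known writer site, occurred on the transcribed strand in 56 of those 979 windows (5.72%) and in 953 of all 17527 (5.44%). The reverse complement AGTCC occurred in 5.11% of both. Start windows under peaks therefore held these letters about as often as all start windows. Transcripts under a peak began with G in 49.5% of windows against 43.7% of all windows, and with A in 31.1% against 31.6%. The 6 windows below are examples with GGACT whose peak had a large log2 IP over input, from 2.06 to 3.23. They were not drawn from all 56 windows alike, so they need not be the highest of them. Each shows 30 transcribed bases of GRCm38.p6, with GGACT in capitals.
Dusp7, chr9:106368639-106368668, plus strand: gccggccgggcgGGACTgaggccggaggct
Sphk1, chr11:116531100-116531129, plus strand: ctcccacGGACTgagtttccagtcaacctt
Insyn1, chr9:58488603-58488632, plus strand: GGACTttccccaccgttgatggagccgact
Sap30l, chr11:57801657-57801686, plus strand: gcccaggggctgccgcggGGACTcggggcg
Men1, chr19:6335013-6335042, plus strand: gGGACTtcatttcccagcaggcttcaggcg
Arih1, chr9:59486328-59486357, minus strand: gcgtcgcgccatGGACTcggacgagggcta

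The peak over the start of Dusp7, a phosphatase of ERK kinases, held 57, 146 and 63 reads in UV IP 1 to 3 against 4, 15 and 9 in input (log2 3.23, SE 0.37). The peak over the start of Sphk1, which makes sphingosine 1-phosphate, held 697, 1752 and 826 IP reads against 144, 186 and 255 input reads (log2 2.5, SE 0.10). That of Arih1, a ubiquitin ligase gene, held 2105, 5467 and 2808 IP reads against 575, 865 and 1093 input reads (log2 2.06, SE 0.09). Since these windows were picked for their peak values, the values are a description only, and a match of letters does not locate a methylated base.

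Hox genes, immediate early genes and ZBTB factors had the highest medians of the 44 gene groups. Over all genes tested, 30.4% were higher and 30.1% lower, the background for every group count. Of 29 Hox genes tested, which set positional identity along the body, 20 were higher and 0 lower in IP, with a median of 0.82. The count of lower genes was also 0 at an unadjusted p below 0.05 in edgeR and in DESeq2, and the lowest value was that of Hoxa3, −0.08. Hoxa7 had 72.2, 86.0 and 103 CPM in UV IP against 19.1, 21.8 and 26.1 CPM in input (log2 1.96, SE 0.05, adjusted p = 5.46e-17, edgeR), and its exons overlap Hoxaas3 on the other strand. Hoxb8, Hoxc8 and Hoxb7 were at 1.85, 1.76 and 1.73. Hox transcripts had few exons, with a median of 2, and 25 of the 29 carried a UV peak. A UV peak was carried by 46.1% of all genes tested and 65.7% of protein-coding genes tested. Of all genes of at least 5 CPM, 72.9% carried one. These shares are the background for each group's count of genes with a peak.

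Zinc finger families stood high as well. Of 40 ZBTB factors, DNA-binding proteins with a BTB domain, 34 were higher and 0 lower in edgeR (0 also at an unadjusted p below 0.05 and in DESeq2), with a median of 0.78, and 39 of 40 carried a UV peak. Zbtb7b and Zbtb24 were at 1.51 and 1.58, and Zbtb20 had the lowest value of the group, −0.08, without a call. Of 368 Zfp genes tested, 266 were higher and 22 lower, with a median of 0.58. Zfp830, an intronless gene, had 75.03, 77.9 and 80.5 CPM in IP against 22.5, 22.7 and 22.6 CPM in input (log2 1.79, SE 0.06), and Zfp503, Zfp609 and Zfp407 were at 1.64, 1.23 and 1.16.

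Chromatin regulators were enriched despite long, many-exon genes. Of 24 tested, 22 were higher and 1 lower, with a median of 0.58, a median of 23 exons and a UV peak in all 24. Arid1a, a subunit of BAF remodelling complexes, had 435, 462 and 460 CPM in UV IP against 164, 167 and 161 CPM in input (log2 1.47, SE 0.04, adjusted p = 2.98e-16). Asxl1, Tet3 and Arid1b were at 1.11, 0.92 and 0.80, and Suz12, a Polycomb subunit, was the 1 lower gene at −0.40. Among Kruppel-like and SP factors, 12 of 16 were higher and 0 lower in edgeR, with 0 lower also at an unadjusted p below 0.05 and in DESeq2, and a median of 0.42. Klf4, which drives the epidermal barrier programme, had 793, 674 and 694 CPM in IP against 370, 308 and 330 CPM in input (log2 1.10, SE 0.05), and Klf5 and Klf7 were at 1.06 and 0.99.

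Epidermal and dermal transcription factors were more mixed, with 22 of 31 higher, 4 lower and a median of 0.43. Twist1, a factor of dermal mesenchyme, had 17.5, 17.9 and 17.7 CPM in UV IP against 4.82, 4.79 and 4.47 CPM in input (log2 1.92, SE 0.08). Gata3, of epidermis and follicle, was at 0.95, Tfap2b at 1.14 and Zeb2 at 0.76. The lower members included Trp63, the master factor of the epidermal lineage, at −0.16, and the grainyhead factors Grhl1 and Grhl3 at −0.49 and −0.33.

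Immediate early genes, which cells induce within minutes of a stimulus, had the second highest group median, 0.81, with 15 of 18 higher and 0 lower in edgeR (0 also at an unadjusted p below 0.05 and in DESeq2). Egr1 had 117, 173 and 158 CPM in UV IP against 31.0, 46.9 and 46.2 CPM in input (log2 1.86, SE 0.06, adjusted p = 3.03e-16). Ier5, Jun and Ier2, each a single-exon gene, were at 1.66, 1.47 and 1.34. Fos, Fosb and Nr4a1 were not called, at −0.08, −0.15 and 0.06, although they belong to the same response. The SOCS family of cytokine feedback inhibitors had 5 of 8 higher and 1 lower, with a median of 0.61, Socs6, Socs5 and Socs4 being at 0.95, 0.67 and 0.66.

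In WNT signalling, which drives hair follicle growth, most ligand and receptor genes were higher in IP. Their group medians varied between UV pairs 1 to 3, at 0.33, 0.68 and 0.95 for ligands and 0.89, 0.71 and 0.48 for receptors. Of 10 ligand genes, 7 were higher and 0 lower in edgeR, as at an unadjusted p below 0.05 and in DESeq2 (median 0.72), with Wnt10a at 1.38 and Wnt4 at 0.97. Of 11 receptor genes, 9 were higher and 2 lower (median 0.68). The single-exon Frizzled gene Fzd7 had 190, 218 and 190 CPM in UV IP against 68.3, 74.2 and 68.3 CPM in input (log2 1.5, SE 0.05, adjusted p = 7.25e-16), and Fzd1 and Fzd10 were at 1.51 and 1.27, while Fzd3 and the co-receptor gene Lrp5 were lower at −0.36 and −0.23. Inhibitors and degradation factors had 8 of 10 higher and 2 lower (median 0.39), with Dkk2, Axin2 and Apc at 1.45, 0.71 and 0.49 and the secreted inhibitors Wif1 and Dkk3 at −0.85 and −0.40.

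NOTCH ligands stood above NOTCH receptors in value. Of the 8 genes, 5 were higher and 0 lower in edgeR, as at an unadjusted p below 0.05 and in DESeq2, with a median of 0.45. Jag2, Jag1, Dll1 and Dll4 were at 0.95, 0.88, 1.04 and 0.77, against 0.14 for Notch3 and −0.06 for Notch1, which was not called. Of 8 nuclear factors and targets, 5 were higher and 1 lower (median 0.64): the coactivators Maml2 and Maml1 and the target Heyl were at 1.44, 1.22 and 1.05, and the DNA-binding factor Rbpj was lower at −0.32. The BMP list was even, with 3 of 8 higher and 3 lower (median −0.04, and 0.00 without UV sample 3). In so short a list these counts are near the shares over all genes, 30.4% and 30.1%. The ligands Bmp2 and Bmp4 were at 1.21 and 0.89, the receptor Bmpr1a at −0.67 and the proteinase Bmp1 at −0.63. SMAD factors had 10 of 12 higher and 2 lower (median 0.38), with Smad1 at 1.21 and the inhibitory Smad7 at 1.07, the ubiquitin ligases Smurf2 and Smurf1 being the lower ones at −0.71 and −0.38.

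Of hedgehog genes, 5 of 11 were higher and 5 lower (median 0.06, −0.10 with library size only). Gas1, an intronless co-receptor gene, was at 1.83 with 53.2, 47.2 and 43.4 CPM in UV IP against 15.0, 13.2 and 12.3 CPM in input, and Gli2 was at 0.96. Sufu, Hhip and Cdon were lower at −0.69, −0.86 and −0.67. Ephrins and EPH receptors had 10 of 12 higher and 2 lower (median 0.26), led by Efna1 at 1.28. Clock genes were even, with 6 of 18 higher and 6 lower (median 0.00), near the shares over all genes, 30.4% and 30.1%. Bhlhe40, a repressor of the loop, was at 1.10 and Cry1, another repressor, at −1.75 (SE 0.11).

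Genes of the p53 response, which follows DNA damage, had 11 of 20 members higher and 7 lower, with a median of 0.33. Aen, an apoptosis-linked nuclease gene, had 94.0, 90.9 and 93.2 CPM in UV IP against 41.8, 36.9 and 37.8 CPM in input (log2 1.26, SE 0.05). Gadd45a was at 1.34. The other 3 genes named by the rule were lower: Trp53inp1 at −1.21 with 30.6, 31.7 and 32.2 CPM in IP against 67.4, 70.7 and 81.3 CPM in input, Ei24 at −0.76 and Ccng1 at −0.74. Between UV and control, 0 of these 20 genes differed in enrichment at an adjusted p below 0.05 in edgeR (1 higher and 3 lower at an unadjusted p below 0.05). Since 1.59% of all genes tested were called, a count of 0 in so short a list is near the background.

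**Figure D2:**
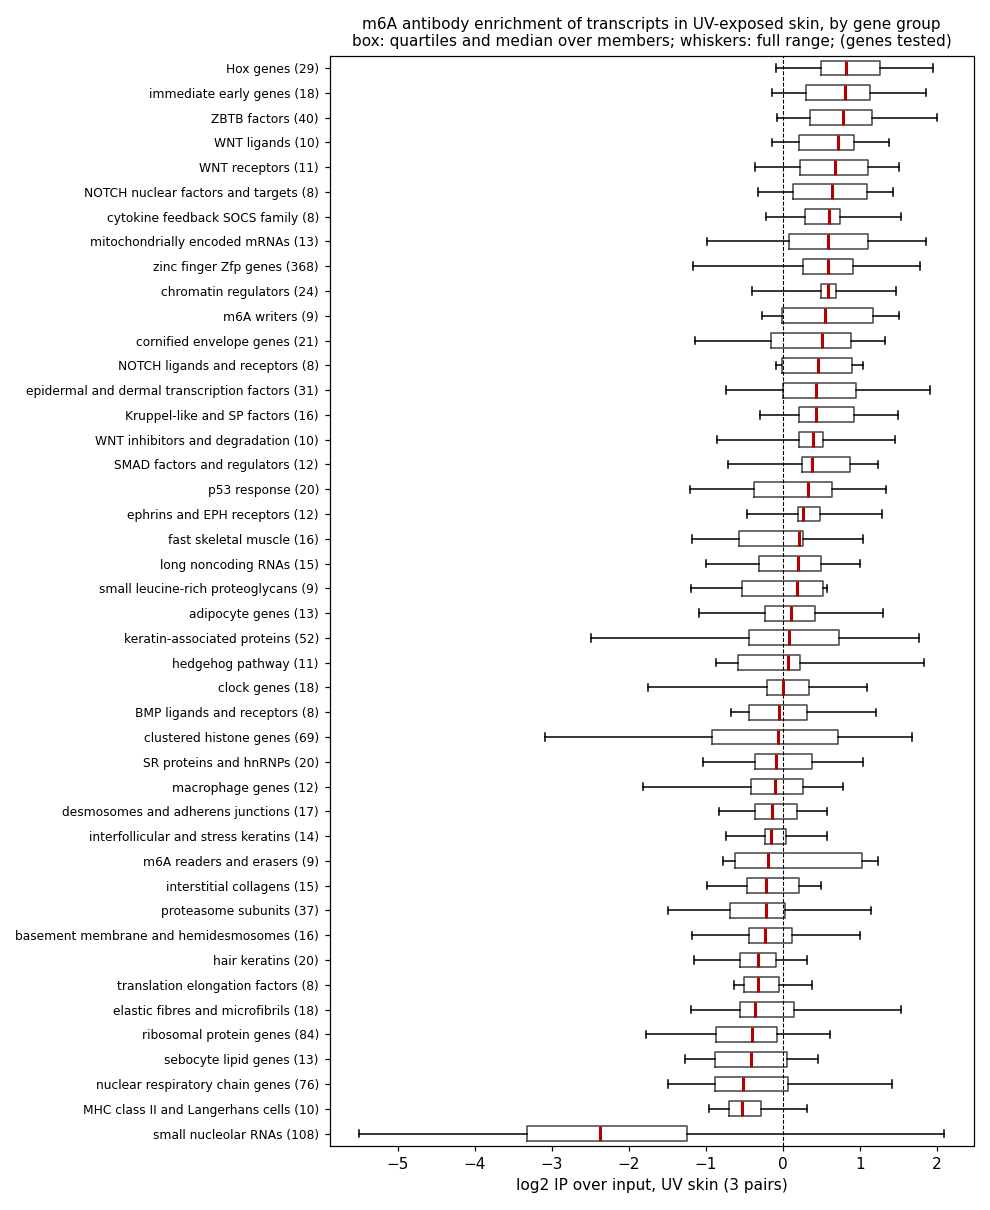
Log2 IP over input in UV skin (x axis) for the members of 44 gene groups, sorted by median, with the number of genes tested in brackets. Boxes show quartiles, red lines medians and whiskers the full range; Hox genes stand at a median of 0.82 at the top and small nucleolar RNAs at −2.38 at the bottom.

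Structural genes of skin differed by group. Of 21 cornified envelope genes, which build the outer barrier, 14 were higher and 4 lower, with a median of 0.51. Flg, which encodes the filaggrin precursor largely in a long last exon, had 53758, 37747 and 57803 CPM in UV IP against 27799, 18541 and 30082 CPM in input (log2 0.97, SE 0.04, adjusted p = 2.01e-14). Ppl, Evpl and Flg2 were at 0.94, 0.69 and 0.68. Cdsn, Tgm1 and Sprr2a1 went the other way at −0.74, −0.45 and −1.14. Reads of Sprr2a1 could be shared with Sprr2a2, whose exons it overlaps, and with other Sprr2 copies.

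Epidermal keratins of the interfollicular and stress type had 3 of 14 members higher and 9 lower, with a median of −0.15. Krt1 had 23102, 14069 and 23562 CPM in UV IP against 33594, 20582 and 33659 CPM in input (log2 −0.53, SE 0.03). Every pair fell in the same direction although sample 2 had the lowest values in both libraries. Krt17 and Krt6a, which rise in wounded epidermis, were at −0.74 and −0.24, Krt10 at 0.18 and Krt78 at 0.57. With library size only, Krt10 was no longer called (0.02, adjusted p = 0.72). Hair keratins had 2 of 20 higher and 13 lower (median −0.32), with Krt34, Krt86 and Krt27 at −1.15, −0.94 and −0.58. Tchh, the trichohyalin gene of the inner root sheath, took the most reads on average over the 3 UV inputs, though not in input 1, and was enriched, with 31084, 76363 and 79274 CPM in IP against 17673, 40946 and 43248 CPM in input (log2 0.86, SE 0.03), although DESeq2 did not call it (adjusted p = 0.158).

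Desmosome and adherens junction genes had 6 of 17 higher and 10 lower (median −0.15). Dsp, the desmoplakin gene, had 21434, 18938 and 20417 CPM in UV IP against 14508, 12495 and 13729 CPM in input (log2 0.58, SE 0.03), whereas Ctnnb1, Dsc3 and Cdh1 were at −0.83, −0.49 and −0.43. At the basement membrane, 5 of 16 genes were higher and 9 lower (median −0.23). The plakin genes Plec and Dst, with long exons, were at 1.00 and 0.52, while Itgb4, the hemidesmosome integrin subunit, was at −1.18 with 105, 89.4 and 76.5 CPM in IP against 236, 207 and 173 CPM in input. Lama5 was at −1.05.

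Collagen and elastic fibre genes of the dermis had more members lower than higher. Of 15 interstitial collagen genes, 5 were higher and 10 lower, with a median of −0.21 and a median of 49 exons. Col1a1 had 1139.6, 1339.7 and 1364 CPM in UV IP against 2208, 2598 and 2592 CPM in input (log2 −0.95, SE 0.06, adjusted p = 1.02e-11). Col1a2 had 611, 750 and 780 CPM in IP against 1243, 1463 and 1512 CPM in input (log2 −0.98, SE 0.06), and Col3a1 and Col5a2 were at −0.70 and −0.48. The 5 higher genes were the chains of collagen VI: Col6a6, Col6a5, Col6a3, Col6a1 and Col6a2, at 0.49, 0.41, 0.34, 0.23 and 0.19. Between UV and control, 0 of these 15 genes differed in enrichment in edgeR, also at an unadjusted p below 0.05, against 1.59% called over all genes, which is again near the background.

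Elastic fibre and microfibril genes had 4 of 18 higher and 10 lower (median −0.36). Emilin1, a glycoprotein of elastic fibres, had 28.7, 36.9 and 32.9 CPM in UV IP against 10.4, 12.3 and 11.3 CPM in input (log2 1.53, SE 0.07), and Loxl1, a crosslinking enzyme gene, was at 0.99. Fbn1 and Ltbp3 were lower at −0.57 and −0.62. Of 9 small leucine-rich proteoglycans, 3 were higher and 4 lower (median 0.19): Lum was at 0.57, Dcn at −0.53, Ogn at −1.06 and Aspn at −1.20. Each matrix family thus held members on both sides of 0,.

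Lipid genes of the sebaceous gland had 3 of 13 higher and 8 lower (median −0.41). Acly, which makes cytosolic acetyl-CoA, had 124, 96.8 and 99.2 CPM in UV IP against 291, 235 and 241 CPM in input (log2 −1.27, SE 0.04, adjusted p = 8.93e-16), and Soat1, Fasn and Plin2 were at −1.26, −0.95 and −0.89. Adipocyte genes were mixed, 6 of 13 higher and 4 lower (median 0.10, −0.06 with library size only), with Plin4 and Lpl at 1.31 and 0.55 and Cfd and Cidec at −1.10 and −0.96. Muscle genes had 9 of 16 higher and 5 lower (median 0.20), with Tnnt3 at 1.04 and Acta1 at −1.18. Levels of Acta1 were 335, 177 and 515 CPM in the UV inputs, yet its 3 pairs gave −1.14, −1.17 and −1.22.

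Immune genes were low or mixed. MHC class II and Langerhans cell genes had 1 of 10 higher and 7 lower (median −0.53), with H2-Aa, H2-Eb1, H2-Ab1 and Epcam at −0.74, −0.66, −0.55 and −0.44. Macrophage genes had 4 of 12 higher and 4 lower (median −0.10), near the shares over all genes, 30.4% and 30.1%. Adgre1 was at −1.81 with 1.34, 1.44 and 1.45 CPM in UV IP against 5.57, 4.41 and 5.29 CPM in input, and Mrc1 was at −0.76, while Cd68, a lysosomal marker, was at 0.69.

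Housekeeping transcripts of translation, respiration and protein turnover were lower in IP for the most part. Of 84 ribosomal protein genes tested, 11 were higher and 59 lower, with a median of −0.41. Rplp2 had 296, 283 and 295 CPM in UV IP against 1074, 920.4 and 979.9 CPM in input (log2 −1.76, SE 0.05, adjusted p = 2.69e-17), and shares exon bases with Snora52. Rps7, Rpl10 and Rplp1 were at −1.51, −1.49 and −1.48. Ribosomal protein genes have many processed pseudogenes with near-identical sequence, so the reads counted for each are uncertain. Of 8 elongation factor genes, 2 were higher and 6 lower (median −0.33), with Eef1a1 and Tpt1 at −0.63 and −0.61.

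Of 76 nuclear genes of the respiratory chain, 18 were higher and 47 lower (median −0.51), and of 37 proteasome subunit genes 7 were higher and 22 lower (median −0.22). Members on both sides of 0 were far from it. Cox7a2l, which encodes a supercomplex factor, had 119, 112 and 122 CPM in UV IP against 44.2, 42.3 and 45.1 CPM in input (log2 1.42, SE 0.05), and Ndufa12 was at 1.11, against −0.99 for Atp5a1. In the proteasome, Psmd7 and Psma4 were at 1.15 and 1.00, against −1.50 for Psmb4 and −1.0 for Psmb7. SR proteins and hnRNPs, which regulate splicing, were even, with 8 of 20 higher and 9 lower (median −0.08): Srsf11 and Srsf4 were at 1.04 and 0.99, Srsf3 and Hnrnpk at −1.04 and −0.65.

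Among the 13 mRNAs encoded by the mitochondrial genome, 8 were higher and 3 lower (median 0.59). mt-Nd2 had 2406, 2005 and 2523 CPM in UV IP against 658, 560 and 684 CPM in input (log2 1.86, SE 0.05, adjusted p = 1.39e-16). mt-Nd6, mt-Nd4 and mt-Nd4l were at 1.16, 1.10 and 1.07, while mt-Co1, mt-Nd3 and mt-Co3 were lower at −0.99, −0.81 and −0.62. Messages cut from shared precursors thus stood at both ends of the range.

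Clustered histone genes had a wide spread, 24 of 69 higher and 27 lower, with a median of −0.06. H1f4, a linker histone gene, had 654, 732 and 785 CPM in UV IP against 229, 237 and 267 CPM in input (log2 1.57, SE 0.04), and H2ac4 and H2ac15 were at 1.65 and 1.51, against −2.44 for H2bc12. Copies of H2A and H2B genes are near-identical, so their counts are uncertain. Keratin-associated protein genes, also intronless and repetitive, had 17 of 52 higher and 13 lower (median 0.08, −0.09 with library size only). These counts were near the shares over all genes, 30.4% higher and 30.1% lower. Values ran from 1.77 for Krtap3-2 to −2.50 for Krtap6-1.

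Noncoding RNAs spanned both ends. Malat1, a nuclear RNA that took the second most reads on average over the UV inputs, had 62027, 58118 and 59759 CPM in UV IP against 31126, 28543 and 30556 CPM in input (log2 1.00, SE 0.03, adjusted p = 4.9e-17). Of 15 long noncoding RNAs listed, 9 were higher and 5 lower (median 0.20), with Xist at 0.98 and Tug1 at 0.71. The snoRNA hosts Snhg1 and Gas5 were lower at −1.0 and −0.75. Their exons share bases with 8 and 9 other genes of the same strand, among them Snord22 for Snhg1 and Snord47 for Gas5.

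Small nucleolar RNAs (snoRNAs), which guide modification of ribosomal and spliceosomal RNA, were the most depleted class. Of 108 listed and tested, 3 were higher and 90 lower, with a median of −2.38, and 0 carried a UV peak. Snord14e (chromosome 9, 40804748 to 40804837, plus strand) had 0.406, 0.228 and 0.351 CPM in UV IP against 14.9, 12.4 and 15.2 CPM in input, a log2 of −5.51 (SE 0.18, adjusted p = 7.25e-16). It lies in exon bases of Hspa8. Snora74a, better covered, had 4.37, 3.44 and 4.86 CPM in IP against 76.7, 65.6 and 81.4 CPM in input (log2 −4.16, SE 0.07, adjusted p = 6.72e-20). Of the 12 named genes with the largest negative values, 9 were snoRNAs. The other 3, AC121821.1, AC154540.1 and Snhg3, share exon bases with Snora74a, Snora81 and Snora73a. Snora73a and Snora73b, at −3.95 and −3.94, are paralogs whose reads may be divided between them.

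Length went with this depletion. Genes with fewer than 250 exonic bases that are not snoRNAs numbered 1064 and had a median of −0.49, with 177 higher and 386 lower, against a median of 0.01 for the 23742 genes of 250 bases or more. The 7SL-type RNA Rn7s2, of the signal recognition particle, was at −3.23 with 3103, 2606 and 3129 CPM in UV IP against 29079, 23562 and 30687 CPM in input, and its copy Rn7s1 at −0.74. The part of RNA length in these values was not tested.

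Exon structure ordered the medians of protein-coding genes more clearly than length did. Of 15981 tested, 36.6% were higher and 30.1% lower, with a median of 0.07. The 613 genes with a single exon had a median of 0.69, and the medians were lower with each step: 0.62 for 2 exons, 0.38 for 3 to 4, 0.11 for 5 to 8, −0.04 for 9 to 16 and −0.11 for 17 or more. The single-exon median was 0.64, 0.68 and 0.67 in UV pairs 1 to 3. Total exonic length gave no such order of medians, its bins ranging from −0.04 to 0.09. The share called higher did rise with length, from 27.1% at up to 999 bases to 39.0% at 8000 or more. Since library size alone moved the median of all genes to −0.17, the sign of the middle bins depends on the scaling.

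The last exon, where stop codons usually lie, gave an order as well. Medians were −0.14 for last exons under 500 bases, −0.02 for 500 to 999, 0.10 for 1000 to 1999, 0.18 for 2000 to 3999 and 0.23 for 4000 bases or more. Both features counted together: the 2243 genes with 1 to 4 exons and a last exon of 1000 bases or more had a median of 0.61, and 59.1% of them were higher. The 5143 genes with 5 or more exons and a shorter last exon had a median of −0.13, and 25.7% were higher. Between these lay the 1196 genes with 1 to 4 exons and a shorter last exon, at 0.17 with 38.6% higher. The 7399 genes with 5 or more exons and a last exon of 1000 bases or more were at 0.05 with 37.0% higher. In single-exon genes the last exon is the whole gene, so the features are not separate there. Genes of at least 100 CPM had a median of 0.33, with 63.5% higher. The part of exon structure and of abundance in any group's value was not tested.

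**Figure D3:**
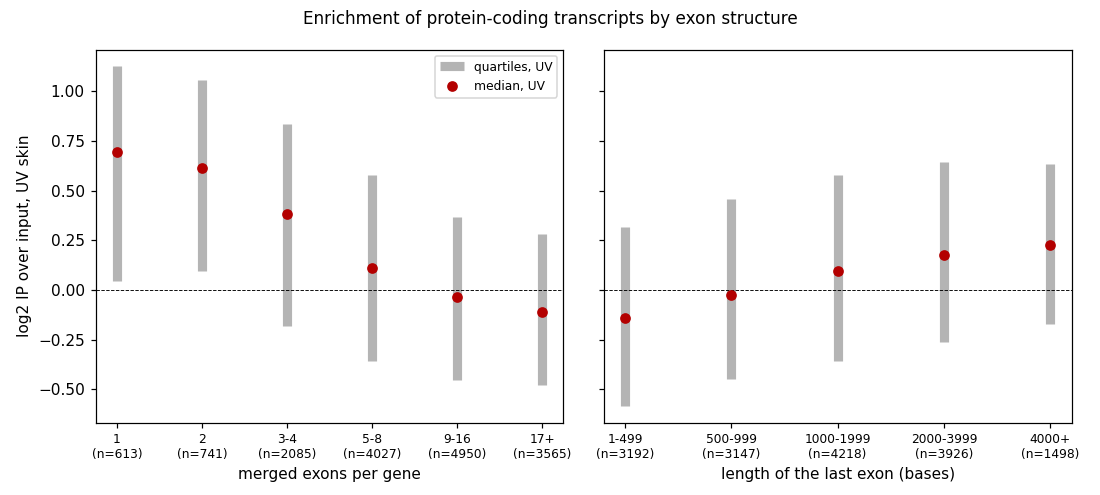
Median (red) and quartiles (grey) of log2 IP over input in UV skin (y axis) for protein-coding genes, by merged exons per gene (left) and by length of the last exon in bases (right). Medians run from 0.69 at 1 exon to −0.11 at 17 or more, and from −0.14 to 0.23 with longer last exons.

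The groups above differed in the same features. Immediate early genes had a median of 2 exons, WNT receptors 2 and Hox genes 2, while interstitial collagens had 49 and basement membrane genes 50.5. Ribosomal protein genes had a median last exon of 350.5 bases and respiratory chain genes 301, against 1330 over all protein-coding genes. Several groups departed from the order by exon count. Chromatin regulators had 23 exons but a median last exon of 2982 bases. NOTCH ligands and receptors had 28.5 exons at a median log2 of 0.45. Fast skeletal muscle genes had 21 exons and a median last exon of 275 bases at a median log2 of 0.20. Clustered histone and keratin-associated protein genes had a median of 1 exon, yet median log2 values of −0.06 and 0.08.

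The authors' peak table listed 24969 peaks called in the UV arm, naming 11564 genes. Because the authors chose these regions for enrichment in the same libraries, their calls are a description of the regions. Of 23776 peaks with enough reads to be tested, 22531 (94.8%) were higher and 176 (0.74%) lower in UV IP than in UV input, and 19318 (81.2%) were higher by more than 1.5-fold. Peaks called in the control arm were chosen without the UV libraries as far as the table says, and of 17497 tested in the UV libraries 93.6% were higher, with a median of 1.35. The UV-arm peaks stood above their own genes, by a median of 0.89 on the log2 scale.

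Last exons held the largest share of peaks. By midpoint, 11040 peaks (44.2%) lay in last exons, 4670 (18.7%) in internal exons of 400 bases or more and 799 (3.2%) in shorter internal exons. First exons held 2653 (10.6%), single exons 1393 (5.58%), and 4411 midpoints (17.7%) fell between exons. The share of exonic bases in each place was not computed, so these percentages are not densities. Protein-coding genes tested had a median last exon of 1330 bases and a median of 3939 exonic bases. Median enrichment was 1.53 in last exons, 1.42 in first exons, 1.41 in single exons, 1.37 in long internal exons and 1.04 in short ones. Midpoints between exons, whose peaks spanned a median of 2717 bases, had a median of 0.80.

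Within last exons of 2000 bases or more, 5368 peaks of up to 400 bases were profiled from the exon's start. The window from base 200 to 399 held 864 of them (16.1%), the window before it 507 (9.45%) and the one after it 450 (8.38%). Later windows declined to 237 (4.42%) at bases 1800 to 1999. Peak length was taken along the genome, so most peaks reaching over the exon's start into earlier exons were left out. The first window can therefore be undercounted and is not comparable with the others. Median enrichment was 1.58 in the fullest window and between 1.42 and 1.59 in the others up to base 1999, so number varied along the exon more than strength. The merged exons of genes with more than 1 exon were also cut into 10 equal parts. The first part held 14.1% and the last part 13.3% of 16046 peaks, with the fewest, 7.4%, in the third part. Only peaks of up to 400 bases along the genome with a midpoint in an exon entered. Most peaks that cross an intron were thus left out, so the parts are not equally counted.

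**Figure D4:**
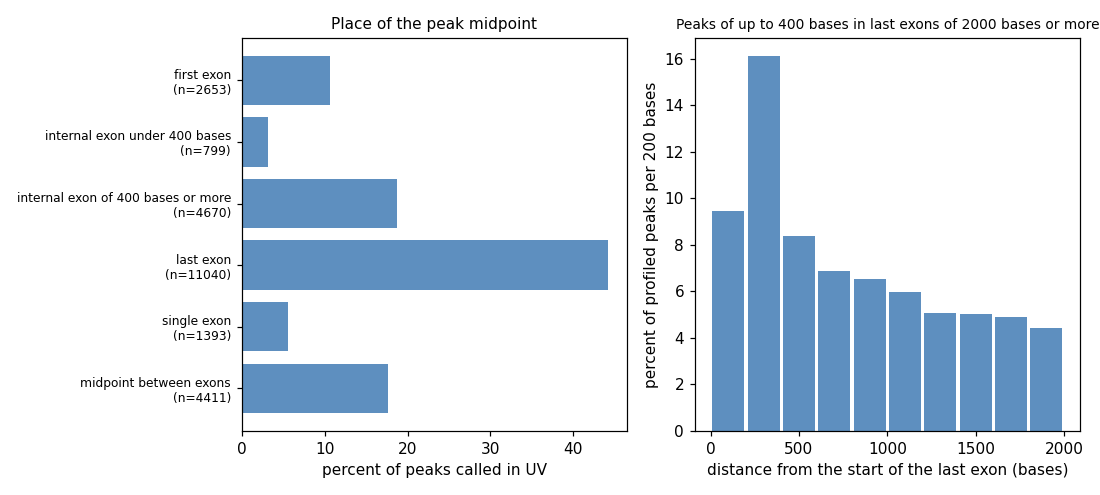
Left: percent of the 24969 peaks called in UV by place of their midpoint, last exons holding 44.2%. Right: percent of 5368 short peaks in long last exons per 200 bases from the start of the exon, highest at 16.1% from base 200 to 399. The first window can be undercounted, since most peaks reaching over the exon's start were left out.

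Gene-level enrichment and peaks went together. Among genes of at least 5 CPM, 91.1% of those called higher carried a UV peak, against 76.7% of genes not called and 50.04% of those called lower. The median log2 IP over input was −0.48 for the 3220 genes without a peak, −0.03 with 1 peak, 0.19 with 2, 0.41 with 3 to 4 and 0.59 with 5 or more. Both measures come from the same libraries. A gene called lower could still hold a peak: 2240 of 4476 such genes did.

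UV and control skin had closely similar landscapes. Of the genes called higher in UV IP, 6610 were also higher in control IP, which is 87% of the UV calls and 87.9% of the control calls. Of those called lower, 6510 were shared, 86.5% of the UV and 83.7% of the control calls, while 21 genes higher in UV were lower in control and 7 genes lower in UV were higher in control. Log2 IP over input correlated at 0.97 between UV and control across 11929 genes. The UV and control peak sets overlapped by at least 1 base in 14803 of 24969 UV-arm peaks and 15349 of 18020 control-arm peaks.

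The test of the difference itself called 399 genes (1.59%), with 211 (0.843%) higher and 188 (0.751%) lower in UV than in control. Of the 211 higher, 84 had fewer than 250 exonic bases and 36 were protein-coding, against 1280 short and 15981 protein-coding genes among the 25022 tested. Of the 188 lower, 5 were short and 143 protein-coding. Sizes also differed: 115 of the higher and 1 of the lower genes changed at least 2-fold. The balance turned with the method: scaling by library size gave 312 higher and 39 lower genes, and DESeq2 gave 77 and 382. Without the pairing of IP and input the counts were 3 and 0. They were 591 and 912 without control sample 2, and 91 and 37 without UV sample 1.

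The named genes with the largest differences were structural and small RNAs. Snord49a had 21.2, 16.8 and 17.5 CPM in UV IP and 4.56, 4.37 and 3.94 CPM in UV input, against 11.5, 21.6 and 19.8 CPM in control IP and 22.3, 10.8 and 15.5 CPM in control input, a difference of 2.01 (SE 0.30, adjusted p = 0.000628, edgeR). Its UV inputs all lay below its control inputs, while the IP values overlapped. AY036118, whose exons overlap an 18S ribosomal RNA gene, had a difference of 3.27 (SE 0.38, adjusted p = 5.58e-05), with 25.3, 13.8 and 15.9 CPM in UV IP and 4.45, 3.86 and 4.69 CPM in UV input, against 5.21, 115 and 14.4 CPM in control IP and 27.3, 120 and 52.7 CPM in control input. Control sample 2 was high in both of its libraries. The mitochondrial 16S ribosomal RNA mt-Rnr2 differed by 1.32 (SE 0.27, adjusted p = 0.0119), and that call was lost without UV sample 1 (1.16, adjusted p = 0.165). Rnu1b1, a U1 small nuclear RNA, and Rny3, a Y RNA, differed by 1.44 and 1.41.

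Rn7s2, another short RNA, was lower, at −3.23 in UV against −2.40 in control (difference −0.84, SE 0.05, adjusted p = 2.13e-09), with control values of 2529, 2364 and 3589.9 CPM in IP against 12712, 12332 and 19972 CPM in input. Rn7s1 moved the other way, with a difference of 0.51 (adjusted p = 0.00255). Among the genes named by the rule were also Gadl1, an amino acid decarboxylase gene, with a difference of −0.78 (SE 0.11, adjusted p = 0.000367), and Sprr2a1 with −0.76 (SE 0.11). Gadl1 had 6.46, 5.39 and 9.97 CPM in UV IP and 17.8, 16.6 and 24.8 CPM in UV input, against 26.8, 12.6 and 47.7 CPM in control IP and 39.7, 23.7 and 73.8 CPM in control input. The UV and control input levels of Gadl1 overlapped, with UV sample 3 just above control sample 2.

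**Figure D5:**
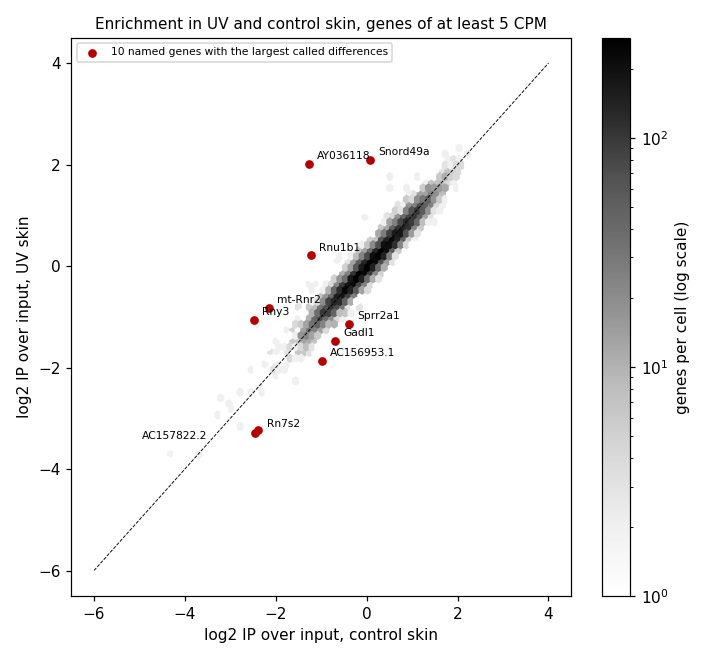
Log2 IP over input in UV skin (y axis) and control skin (x axis) for 11929 genes of at least 5 CPM; grey shade counts genes per cell on a log scale. The 10 named genes with the largest called differences are red, among them AY036118 at 2.01 in UV and −1.26 in control, and most genes lie near the dashed line of equal values.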

How the data were processed

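RNA of UV-exposed and control mouse skin was sequenced as m6A IP and input libraries, 3 samples of each condition. The deposited gene table holds raw read counts per gene and the deposited peak table raw read counts per peak, with peaks called by the authors separately in the UV and the control arm. Reads were aligned with STAR 2.5.3a to GRCm38, per the submitters' processing notes. The counter, its use of strand, the handling of duplicate reads and the antibody were each not given in the sources used here. A total of 35448 of 49492 genes matched a RefSeq symbol, 966 of them through an older one.

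The UV comparison was fitted with edgeR 4.0.16 (R 4.3.3, limma 3.58.1) to all 12 libraries, with TMM scaling, a filter on low counts by group, a term for each of the 6 samples and an IP coefficient per condition. The quasi-likelihood test was adjusted by Benjamini-Hochberg over all genes, or over all peaks, with a threshold of 0.05. Peak counts used the library sizes and TMM factors of the gene table. Values per pair are differences of log2 CPM with a prior count of 2. Exon counts and lengths come from the merged exons of the count table, so they mix the isoforms of a gene.

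The number in the sample titles pairs IP with input. Deviations from the group means correlated at 0.75, 0.795 and 0.761 between same-numbered UV libraries and at −0.469 to −0.329 between different numbers. Deviations from a mean of 3 libraries cancel out, so the negative values follow from the positive ones and are not separate support for the pairing. Replicate libraries differed by far more than counting noise, with chi-square per degree of freedom between 45.1 and 72.2 in the UV groups; these values would be smaller if both mates of a pair were counted. On simulated counts for the UV comparison over 25007 genes, 80 of 100 genes changed 2-fold and 28 of 100 changed 1.5-fold were recovered. There were 2 false calls and 1 sign error. Few genes were changed in the simulation, while 60.5% were called in the data, so these recoveries need not hold for the data.

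Named genes were, among called genes of at least 5 CPM with 1 sign in all 3 UV pairs, the 12 largest values each way, leaving out names of the Gm-number and Rik kind. To these came the 4 members of each list with the smallest p, the 10 genes with the most reads in UV input, Virma, Mfap4, and the 5 largest called differences between UV and control each way. Other list members were named after their values were seen. Some genes that meet this rule are not reported here. The members and the 44 gene lists were chosen with earlier results of these data known. Alternatives were library size only, other count filters, no replicate block, the UV libraries alone, halved counts, a 1.5-fold threshold, DESeq2 1.42.0 and leaving out each sample. Start-site sequences are from RefSeq (GRCm38.p6), and sequences of peaks were not used here.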

Additional observations from a re-analysis of the deposited data

Results flagged for a closer look

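Among the genes and peaks named above, 29 genes had a log2 IP over input that differed between UV and control in the test of the difference itself (edgeR quasi-likelihood, all adjusted p below the threshold of 0.05). They are given as UV minus control. The largest positive differences were 3.27 for AY036118, 2.01 for Snord49a, 1.44 for Rnu1b1, 1.41 for Rny3 and 1.32 for mt-Rnr2.

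Other noncoding genes, among them the snoRNA hosts Snhg1, Snhg3 and Gas5, were also less depleted or more enriched in UV than in control, with 0.78 for mt-Te, 0.65 for Snord110, 0.60 for Snhg3, 0.53 for Snhg1, 0.53 for Snora73a, 0.51 for Rn7s1, 0.43 for AC099934.2 and 0.39 for Gas5. Of the small nucleolar RNAs listed, 15 of 108 were higher and 0 lower in UV, and 38 and 0 at an unadjusted p below 0.05 in edgeR, while over all genes tested 0.843% were called higher and 0.751% lower. Their median was −2.38 in UV against −3.09 in control. Snhg1, Snhg3 and Gas5 share exon bases with snoRNA genes, so the host differences may not be separate from those of the snoRNAs. The 7S RNAs went both ways, with −0.88 for AC156953.1, −0.84 for Rn7s2 and −0.83 for AC157822.2. AC157822.2 and AC099934.2 share exon bases with Rn7s2 and Rn7s1.

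Of protein-coding genes, H2ac4 differed by 0.76, Krtap3-2 by 0.50 and Loxl1, a crosslinking enzyme of elastic fibres, by 0.44. Lower in UV were Gadl1 at −0.78, Sprr2a1 at −0.76, Ndufa12 at −0.44, Epcam, an adhesion gene of Langerhans cells and epithelia, at −0.42, Krt86 at −0.38, Rplp2 at −0.37, mt-Nd6 at −0.27, Soat1 at −0.25, Evpl at −0.23 and Tchh at −0.20. Epcam stood at −0.44 in UV and −0.02 in control. All 10 of the largest differences named by the rule lost their call without the pairing of IP and input.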

How the results depend on the processing

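The counts of genes higher and lower in UV IP, 7601 and 7528, stayed within 1.5 times under every alternative tried except the threshold of more than 1.5-fold, which left 3027 and 2957. Without the replicate block, which drops the pairing of IP and input by sample number, they were 6179 and 6093. DESeq2 gave 6949 and 7021, and halved counts gave 7672 and 7626. With library size only, Mfap4 changed sign, to −0.0719 on the log2 scale (adjusted p = 0.483), and Krt10 lost its call (0.02, adjusted p = 0.72). Without the replicate block 13 named genes lost their call, which apart from Socs3 were keratin and muscle genes and Tchh, and DESeq2 did not call Tchh, Rn7s1 (adjusted p = 0.199) or AC099934.2 (adjusted p = 0.14).

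The difference between UV and control was the least stable result. Against 211 higher and 188 lower genes, library size only gave 312 higher and 39 lower, DESeq2 gave 77 and 382, and the fit without the replicate block gave 3 and 0. Leaving out 1 sample moved the higher count between 91 and 591 and the lower count between 37 and 912: the counts were 91 and 37 without UV sample 1, 126 and 80 without UV sample 2, 123 and 60 without UV sample 3, 591 and 912 without control sample 2, and 112 and 54 without control sample 3. The cause was not tested. DESeq2 did not call the difference of mt-Rnr2 (adjusted p = 0.165). Of UV peaks, 266 rather than 176 were lower with library size only, and 35 by more than 1.5-fold.

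With 3 samples a group, a few-fold range of depth and no spike-in named in the labels, values are relative to the other transcripts of a library. Overlapping or near-identical genes cannot be separated in these counts.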
